A study of Mus musculus with 6 samples.

Results

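The proteasome subunit genes were described here, taken as every gene of the array whose symbol begins with Psma, Psmb, Psmc, Psmd, Psme or Psmf and ends in a number. Members were taken by symbol, with earlier results of these data known, and 43 of the 18193 genes with a single-symbol probe set belonged to them. Each gene was read from its brightest probe set, and 39 of the 43 passed the filter on dim signals (a mean of at least 41.0 over the 6 arrays) and were tested. Psme2 was not analysed here.

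The cells were primary dermal fibroblasts that grew out of skin explants of B6 mouse pups of both sexes, 0 to 2 days old by the sample labels and up to 3 days by the series text, at passage 6. The 3 control cultures had no addition, and the 3 Et1 cultures had synthetic endothelin 1 of the human and porcine sequence, a peptide ligand of G-protein-coupled receptors, at 100 nM for 24 hours. All cultures grew in high-glucose medium with serum, and the labels do not say how many pups gave each culture. The series text has cells split between both conditions, but no label says which cultures share a source. Signals are Affymetrix Mouse430_2 intensities, scaled so that every array had the same mean after the top and bottom 2% of probe sets were left out. In such bulk RNA, fewer cells of a type and less RNA per cell cannot be told apart.

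The proteasome is the complex that degrades proteins tagged with ubiquitin. Its core particle is a barrel of alpha rings (Psma) around beta rings (Psmb), and the beta subunits Psmb5, Psmb6 and Psmb7 carry the proteolytic sites. In cells that present antigen or meet interferon, Psmb8, Psmb9 and Psmb10 replace them to form the immunoproteasome. The regulatory particle caps the barrel with a base of ATPases (Psmc) that unfold the substrate, and with other base and lid subunits (Psmd) that bind ubiquitin chains and remove them. Psme genes encode activators that open the barrel without the base, and Psmf1 encodes an inhibitor. The subunits are built in fixed proportions, and the transcription factor Nfe2l1 raises many of their genes when proteasome activity is short.

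The comparison asked how these genes stood in cultures with Et1 against those without. No proteasome gene passed an adjusted p of 0.05 (0 of 39, limma with Benjamini-Hochberg adjustment), against 0.411% of the 11666 genes tested, and the smallest adjusted p was 0.255 for Psmd4. As higher with Et1, 0.137% of all genes passed. Most members nevertheless had a higher mean with Et1, namely 31 of 39, against 55.7% of all genes. Their median log2 fold change was 0.24, a factor of 1.18, and that of all genes was 0.05. At an unadjusted limma p under 0.05 there were 7 members higher and 0 lower, where 6.93% of all genes were higher and 6.53% lower. The 3 Et1 signals lay wholly above the 3 control signals in 8 members and wholly below in 1, against 10.7% and 8.49% of all genes.

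**Figure D1:**
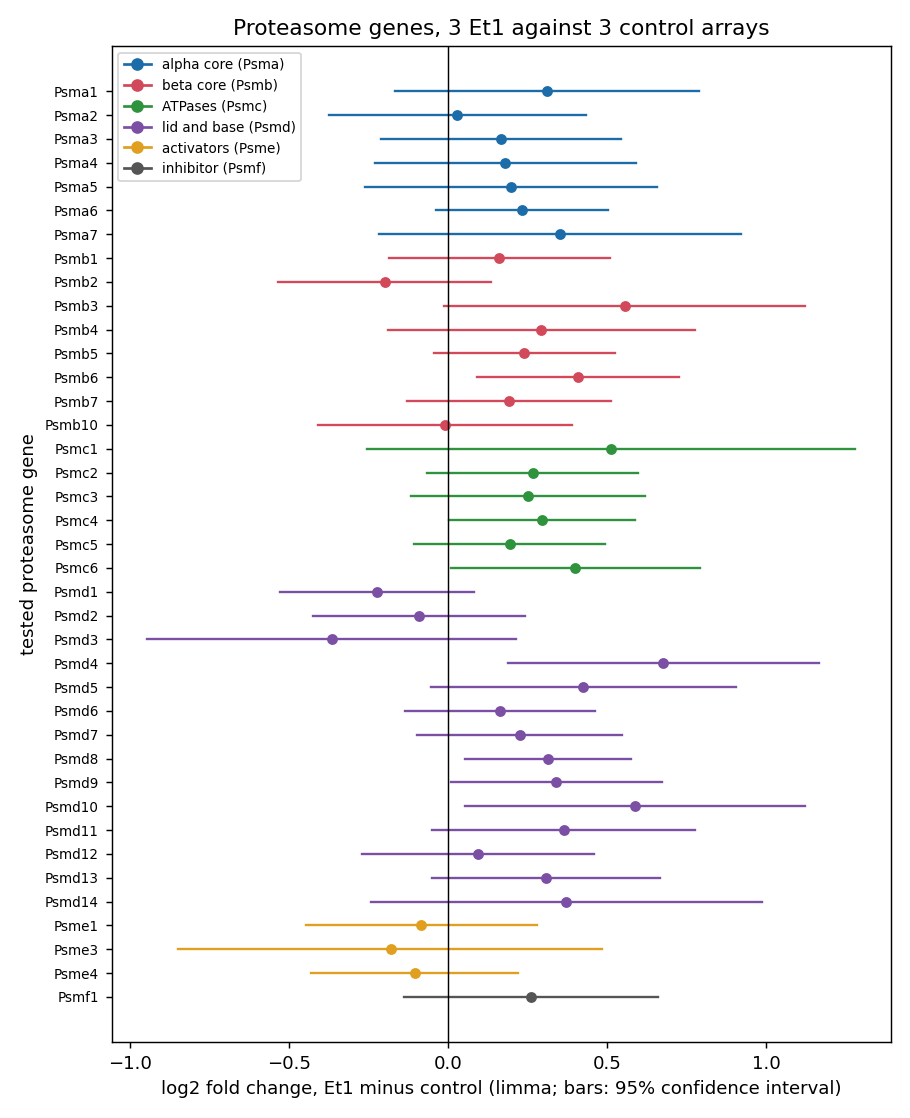
Log2 fold change of each of the 39 tested proteasome genes, Et1 minus control, with its 95% confidence interval from limma, n = 3 arrays per group, coloured by class. The points run from -0.37 for Psmd3 to 0.68 for Psmd4, all 6 ATPases lie above 0, and all 3 activators lie below it.

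Standard errors of the members ran from 0.12 to 0.34 on the log2 scale. The 95% interval excluded a rise of 1.5-fold for 19 of the 39 members. It excluded a fall of 1.5-fold for 37 of them, the exceptions being Psmd3 and Psme3. Affymetrix signals carry no molecule count. The precision of these intervals is limited by the 3 arrays per group.

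The 6 arrays also fell into sets by poly(A) spike-in controls, probe sets for Bacillus transcripts. A low set with averages of 3.45 to 3.57 (log2) held Et1 replicate 2 with control replicates 1 and 2. A high set with averages of 4.75 to 5.64 held Et1 replicates 1 and 3 with control replicate 3. Before scaling, trimmed means ran from 91.8 to 179. The 3' over 5' log2 ratio of beta-actin, a sign of RNA integrity, was 0.20 to 0.30, and that of Gapdh was -0.56 to -0.37. Over all probe sets 78 of 22519 were called by limma, 22 higher and 56 lower, and 44, with 7 higher and 37 lower, when arrays were centred on their median instead. Of 10 defining fibroblast markers 9 were tested and Lum was below the filter. All 10 summed to 26302.1 to 39687.6 untreated against 18659.5 to 30935.7 with Et1. Of the 9 tested, 8 had lower means with Et1 (median -0.50), as had 5171 of all 11666 genes. At an unadjusted limma p under 0.05, 3 of these markers were lower, against 6.53% of all genes. The tested markers also differed between the spike-in sets, from -1.87 for Col1a1 to 0.38 for Pdgfra (high minus low, log2). The part of these marker differences in the results was not tested.

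Proteasome signals moved with these sets. Control replicate 3 was the highest control array for 33 of 39 members (84.6%), which was so for 41.3% of all genes. Et1 replicate 2 was the lowest Et1 array for 25 of 39 (64.1%), against 41.4% of all genes. In a fit that held both the set and the group, the members' median was 0.15 for Et1 minus control and 0.26 for high minus low set, the latter against 0.04 for all genes. Within the low set 32 of 39 members were higher with Et1 (median 0.21), against 53.8% of all genes. Within the high set 28 of 39 were higher (median 0.07), against 54.4% of all genes. The part of the spike-in sets in the Et1 difference was not tested beyond this.

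**Figure D2:**
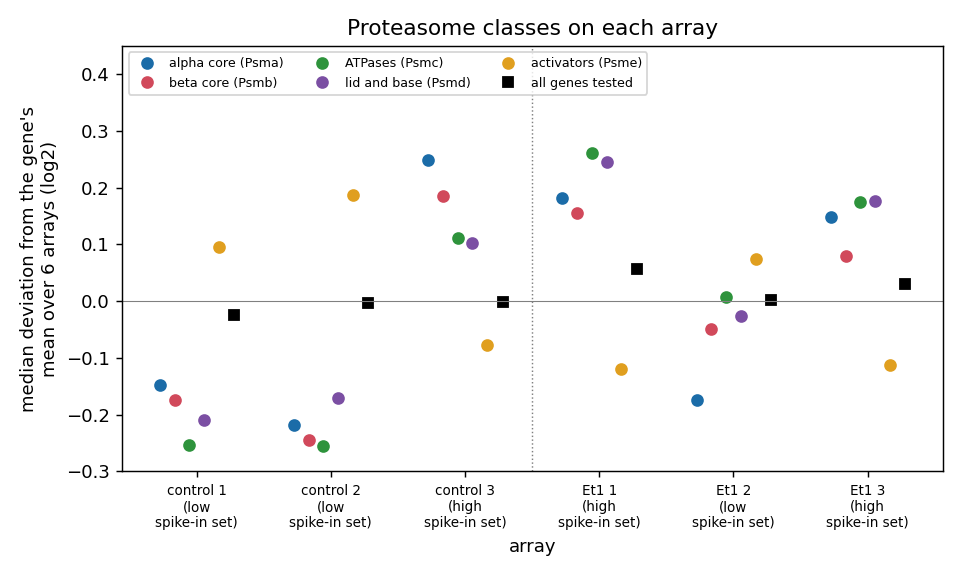
Median deviation of proteasome classes from their genes' means over the 6 arrays (log2), by array, with all 11666 tested genes as black squares. The inhibitor Psmf1 is not shown. The ATPases stand at -0.25 and -0.26 on control replicates 1 and 2 and at 0.11 on control replicate 3, while the activators stand at 0.10, 0.19 and -0.08 on the same arrays.

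Which array was left out moved these counts, and the background moved with them. Without control replicate 3, the members' median was 0.33 and 34 of 39 were higher, against 54.7% of all genes. At an unadjusted limma p under 0.05, 16 of 39 members were then higher, against 10.4% of all genes, and 28 of 39 lay wholly above control, against 23.1%. Without Et1 replicate 2 the median was 0.32 and 32 of 39 members were higher, against 57% of all genes. Of the 39, 12 were higher at that p, against 9.14% of all genes, and 19 lay wholly above control, against 21.2%. Without control replicate 1 there were 0 members at that p, against 3.44% of all genes, and without control replicate 2 there was 1, against 4%. Without Et1 replicate 1 there were 2, against 4.43%, and without Et1 replicate 3 there were 2, against 4.35%. Of 39 members, 8 lay wholly above control without control replicate 1, against 13.3% of all genes, and 8 without control replicate 2, against 14.2%. The count was 9 without Et1 replicate 1 and 10 without Et1 replicate 3, each against 15.1%. With the arrays centred on the median, 30 of 39 members were higher, against 49.3% of all genes. Under that centring 1 member was at that p, against 3.91% of all genes, and 4 did not overlap, against 6.89%. After quantile normalization 10 members were at that p, against 6.78% of all genes.

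Promoters were examined for 36 of the 43 genes with a sequence in the RefSeq table (GRCm38.p6), in the 250 bases before the start site, on both strands. The letters TGACNNNGC, the core of the antioxidant response element that Nfe2l1 and Nfe2l2 bind, occurred in 5 of 36 members (Psmb5, Psmb6, Psmc6, Psmd9 and Psmd12), or 13.9%, and in 11.5% of all 27025 genes. The letters CCAAT, the box of the Nfy factors, occurred in 14 of 36, or 38.9%, and in 37.5% of all genes. The letters GAAANNGAA, from the interferon-stimulated response element, occurred in 3 of 36 (Psmb3, Psmd4 and Psmd9), or 8.33%, and in 8.18% of all genes. These are matches of letters and not shown to be bound. The 120 bases before the start site follow for the catalytic genes Psmb5 and Psmb6 and for Psmd9, which hold the antioxidant letters near the start and whose Et1 signals lay wholly above control. Psmd4 follows as the gene with the largest difference. These 4 were chosen after their values and matches were seen. Psmc6 and Psmd12, which also hold the antioxidant letters, overlapped between groups. Psma6, Psmc4, Psmc5, Psmd8 and Psmd13 lay wholly above control and were not among the genes with those letters. A link between the letters and the Et1 difference was not tested. The sequences run 5′ to 3′ on the gene's strand, and capitals mark matches on either strand.
Psmb5, chr14:54617996-54618115, strand minus: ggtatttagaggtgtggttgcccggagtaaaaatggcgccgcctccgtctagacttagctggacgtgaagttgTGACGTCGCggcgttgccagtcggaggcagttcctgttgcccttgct
Psmb6, chr11:70525237-70525356, strand plus: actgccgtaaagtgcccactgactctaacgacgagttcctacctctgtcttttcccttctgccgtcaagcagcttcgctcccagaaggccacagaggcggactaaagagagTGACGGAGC
Psmd9, chr5:123228070-123228189, strand plus: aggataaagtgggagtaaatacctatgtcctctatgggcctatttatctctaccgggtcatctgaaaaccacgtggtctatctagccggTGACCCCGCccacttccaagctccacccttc
Psmd4, chr3:95042615-95042734, strand minus: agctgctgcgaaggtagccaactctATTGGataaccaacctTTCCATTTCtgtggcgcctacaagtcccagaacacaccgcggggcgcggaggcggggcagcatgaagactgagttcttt
In Psmb5, Psmb6 and Psmd9 the match begins 47, 9 and 31 bases before the start. In Psmd4 the capitals are a CCAAT box and then a GAAANNGAA match, both on the opposite strand.

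The alpha rings of the core form the gate through which substrates enter. All 7 tested Psma genes had higher means with Et1, against 55.7% of all genes. Their log2 fold changes ran from 0.03 for Psma2 to 0.35 for Psma7, with a median of 0.20, and 0 passed the adjusted threshold. On the brightest probe sets, Psma6 was the only one of these 7 whose groups did not overlap, where 10.7% of all genes lay wholly above control. Its signals were 2053, 1927 and 2215 in control replicates 1 to 3 and 2459, 2398 and 2415 in Et1 replicates 1 to 3 (log2 fold change 0.23, SE 0.12, limma adjusted p = 0.471). Its other tested probe sets had log2 fold changes of 0.45, without overlap, and 0.38, with overlap. The one with overlap read 1458, 1259 and 2154 untreated against 2402, 1582 and 2270 with Et1. Its high minus low spike-in set difference was 0.615, and with the set as a block it stood at 0.17.

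Psma7 read 1136, 1054 and 1813 untreated against 1852, 1238 and 1968 with Et1. Psma1 read 1420, 1504 and 2225 untreated against 2131, 1706 and 2498 with Et1. In both genes control replicate 3 stood with the Et1 arrays, and Et1 replicate 2 lay between the other controls and the rest. Psma7 differed by 0.68 and Psma1 by 0.52 on the log2 scale between the high and the low spike-in set, more than between Et1 and control in the same fit (0.13 and 0.14). Psma3, Psma4 and Psma5 had log2 fold changes of 0.17, 0.18 and 0.20. Psma4 ran against the others across the arrays, lower by 0.35 in the high set: it read 1697 on control replicate 3 and 2657 on Et1 replicate 2. Psma8, a form of Psma7 found in testis, was below the filter, with signals of 1.33 to 10.6.

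In the beta rings, the 3 catalytic subunits of the constitutive core had higher means with Et1, as had 55.7% of all genes. Psmb6, the caspase-like subunit, read 993, 999 and 1108 untreated against 1227, 1378 and 1520 with Et1 (log2 fold change 0.41, SE 0.14, 95% interval 0.09 to 0.73, limma unadjusted p = 0.0174, adjusted p = 0.286). Psmb5, the chymotrypsin-like subunit, read 1579, 1662 and 1648 untreated against 2049, 1986 and 1756 with Et1 (log2 fold change 0.24, SE 0.12, limma adjusted p = 0.48). In both genes every Et1 signal lay above every control signal, and their high minus low set differences were 0.07 and -0.02. Psmb7, the trypsin-like subunit, overlapped, with 2963 to 3775 untreated against 3476 to 4331 with Et1 (log2 fold change 0.19).

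Psmb3, a structural beta subunit, had the largest difference of the core. It read 1035, 1113 and 1783 untreated against 2159, 1402 and 2155 with Et1 (log2 fold change 0.56, SE 0.25, limma adjusted p = 0.415). Its groups overlapped through control replicate 3, and its high minus low set difference was 0.68. Its other probe set stood at 0.50. Psmb1 and Psmb4, also structural, had log2 fold changes of 0.16 and 0.29, and 2 dimmer probe sets of Psmb1 stood at -0.15 each. Psmb2 went the other way, reading 1028 to 1220 untreated against 889 to 1111 with Et1 (log2 fold change -0.20, SE 0.15, limma adjusted p = 0.625).

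The immunoproteasome subunits had low signals. Psmb10, which takes the place of Psmb7, was the only one of the 3 to pass the filter, and it did not differ beyond its spread: it read 123, 120 and 154 untreated against 141, 125 and 126 with Et1 (log2 fold change -0.01, 95% interval -0.41 to 0.39, limma adjusted p = 0.988). Psmb8, which takes the place of Psmb5, read 50.2, 34.7 and 45.3 untreated against 15.0, 25.1 and 10.9 with Et1. All its Et1 signals were below all its control signals, but the mean was under the filter, so it was not among the genes tested. Fitted with no filter, its log2 fold change was -1.42 (limma unadjusted p = 0.0112, adjusted p = 0.377). A second and still dimmer probe set of Psmb8 ran the other way: it read 3.28, 1.23 and 1.08 untreated against 21.4, 3.97 and 6.19 with Et1 (no-filter log2 fold change 2.31, limma adjusted p = 0.448). The direction of Psmb8 was therefore not settled by its probe sets.

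Psmb9, which takes the place of Psmb6, read 6.34 to 9.51 on all 6 arrays. Psmb11, the beta subunit of the thymus, read 10.8 to 30.3 and was also under the filter. Within an array, the log2 signal of Psmb8 minus that of Psmb5, which scaling an array by a factor cannot move, was -4.98, -5.58 and -5.19 untreated against -7.10, -6.31 and -7.33 with Et1. The Et1 minus control difference of the means was -1.66, and -0.72 once 50 had been added to each signal. For Psmb10 minus Psmb7 the mean was -4.68 in control and -4.88 in Et1 arrays, and for Psmb9 minus Psmb6 it was -7.16 and -7.45. Of these 3 differences only Psmb8 minus Psmb5 did not overlap between groups.

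Leukocytes are rich in these subunits, and 6 of 11 of their markers passed the filter. All 11 summed to 526 to 631 untreated against 546 to 695 with Et1, and Ptprc, Cd52, Tyrobp, Cd3e and Cd79a were below the filter. Markers of keratinocytes summed to 502 to 598 untreated against 565 to 612 with Et1, those of endothelium to 100.3 to 125 and 120 to 208, and those of melanocytes to 248 to 303 and 268 to 293. Their part in the differences was not tested.

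**Figure D3:**
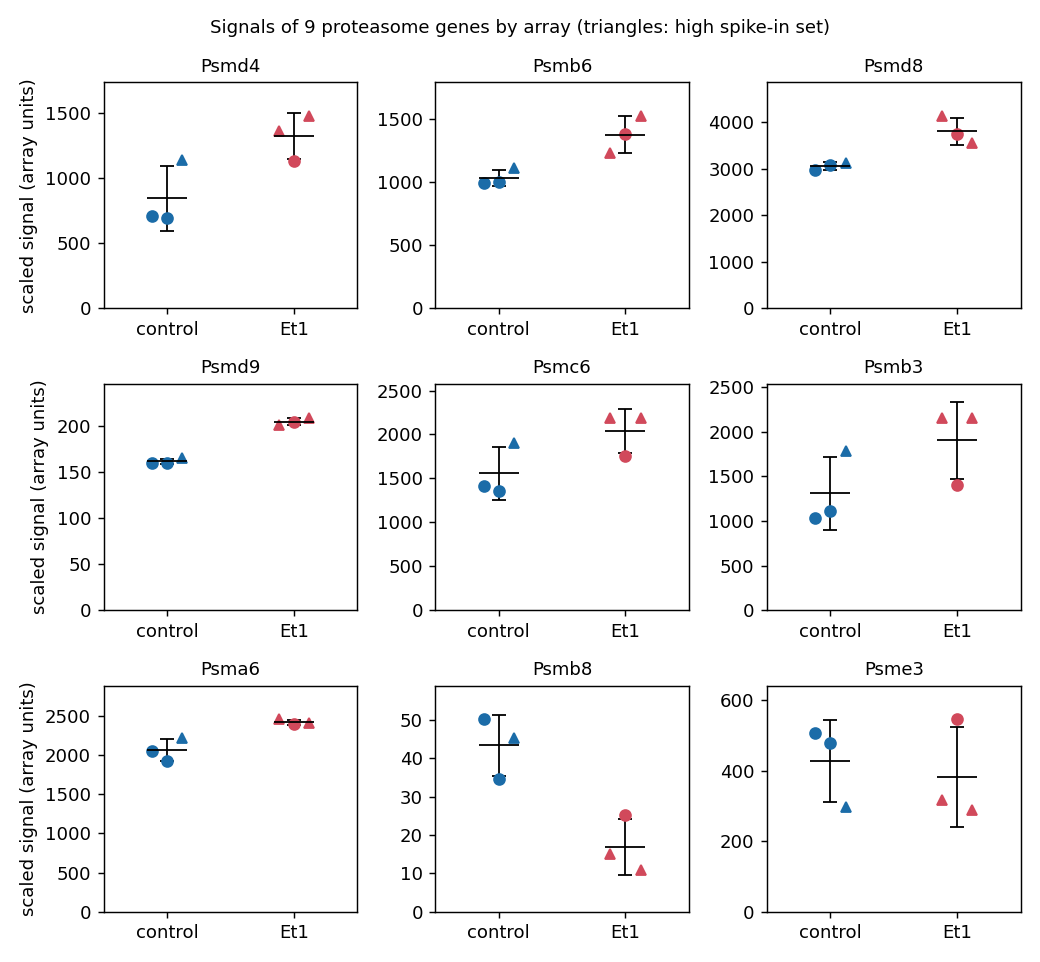
Scaled signals of 9 proteasome genes on each array (blue, control; red, Et1; triangles, high spike-in set), with the mean and SD of 3 arrays. Psmb6, Psmd8, Psmd9 and Psma6 lie wholly above control with Et1 and Psmb8, on its brighter probe set, wholly below, while in Psmb3 and Psme3 control replicate 3 stands apart from the other controls.

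The ATPases form the ring of the base that unfolds substrates and threads them into the core. All 6 Psmc genes had higher means with Et1, against 55.7% of all genes, from 0.19 to 0.51 on the log2 scale around a median of 0.28. On their brightest probe sets all 6 were also higher within the low spike-in set (median 0.29), against 53.8% of all genes. The same held within the high set (median 0.08), against 54.4% of all genes. Within that high set, other tested probe sets of Psmc2 and Psmc4 stood at -0.035 and -0.35, and those of Psmc6 at -0.61 and 0.008. None passed the adjusted threshold, and 2 had an unadjusted limma p under 0.05, where 6.93% of all genes were higher at that p. Psmc6 read 1409, 1357 and 1904 untreated against 2182, 1752 and 2190 with Et1 (log2 fold change 0.40, SE 0.17, limma adjusted p = 0.399). Psmc4 read 1008, 1045 and 1144 untreated against 1331, 1238 and 1353 with Et1 (log2 fold change 0.30, SE 0.13, limma adjusted p = 0.403). On these probe sets the groups of Psmc4 did not overlap, and those of Psmc6 did, through control replicate 3 and Et1 replicate 2. The other tested probe set of Psmc4, nearly as bright, overlapped. It read 769.6, 748.1 and 1650 untreated against 1105, 845.5 and 1520 with Et1 (log2 fold change 0.19, SE 0.33). Its high minus low set difference was 0.87, and with the set as a block it stood at -0.10.

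Psmc2 read 2191 to 2894 untreated against 2707 to 3087 with Et1, on a probe set that may share sequence with other transcripts, and another one stood at 0.22 against its 0.27. Psmc3 and Psmc5 had log2 fold changes of 0.25 and 0.19, and the groups of Psmc5 did not overlap. Psmc1 had the largest standard error of the 39 members, 0.34. It read 545, 532 and 1139 untreated against 1160, 667 and 1237 with Et1, so that its high minus low set difference of 0.96 was far above the 0.19 between Et1 and control in the same fit. A dim probe set of Psmc6 stood at -0.27.

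Psmd genes encode the lid, which holds the deubiquitinase, the other base subunits, and chaperones that help to assemble the base. Of 14 tested, 11 had higher means with Et1, against 55.7% of all genes, with a median of 0.31. Psmd4, a ubiquitin receptor of the base, had the largest difference of all members. It read 707, 694 and 1135 untreated against 1365, 1131 and 1475 with Et1 (log2 fold change 0.68, SE 0.21, 95% interval 0.19 to 1.17, limma unadjusted p = 0.0123, adjusted p = 0.255). Its groups overlapped only in that Et1 replicate 2 lay just under control replicate 3. Its other tested probe sets stood at 0.51 and 0.38.

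Psmd4 was also the only member to pass in the fit that took the spike-in set as a block (the spike-in block), a split found in these data, with a difference of 0.51 (log2; limma adjusted p = 0.039), where 1.75% of all genes passed as higher. It passed as well without control replicate 3, at 0.91 (limma adjusted p = 0.049), where 86 of 22519 probe sets passed as higher. It passed in no fit that left out another array (limma adjusted p from 0.173 to 0.742). It was higher with Et1 by 0.69 within the low set and by 0.32 within the high set. The other base subunits that are no ATPases, Psmd1 and Psmd2, scaffolds that bind ubiquitin-like domains and partner proteins, had lower means. Psmd1 read 1162, 1277 and 1181 untreated against 941, 1113 and 1055 with Et1 and was the 1 tested member with all Et1 signals below control (log2 fold change -0.22, SE 0.13, limma adjusted p = 0.549). Psmd2 stood at -0.09.

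The base assembly chaperones Psmd5, Psmd9 and Psmd10 leave the particle once it is built. All 3 were higher with Et1 in mean, against 55.7% of all genes. They were also higher within the low and the high spike-in set, against 53.8% and 54.4% of all genes. Psmd9 read 159, 160 and 165 untreated against 200.4, 204 and 209 with Et1 (log2 fold change 0.34, SE 0.15, limma adjusted p = 0.395). Its groups did not overlap, with an SD of 3.03 untreated and 4.06 with Et1, and its high minus low set difference was 0.03. A dim probe set of Psmd9 stood at 0.13 with an SE of 0.52. Psmd10, also known as gankyrin, read 190.4, 174 and 289 untreated against 353, 257 and 360.3 with Et1 (log2 fold change 0.59, SE 0.24, limma adjusted p = 0.361). Psmd5 read 545 to 892 untreated against 758 to 1004 with Et1 (0.43). In Psmd10 and Psmd5 the groups overlapped through control replicate 3.

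Of the 8 lid subunits, 7 had higher means, against 55.7% of all genes. Psmd8 read 2968, 3077 and 3125 untreated against 4129, 3740 and 3561 with Et1 (log2 fold change 0.32, SE 0.12, limma unadjusted p = 0.0235, adjusted p = 0.319). Psmd13 read 483 to 536 untreated against 543 to 726 with Et1 (0.31). On these probe sets the groups of both genes did not overlap. The other tested probe sets of Psmd13 stood at 0.46 and 0.04, and on each of them the groups overlapped. Psmd11, at 0.37 on a probe set that may share sequence with other transcripts, had 4 other tested probe sets at 0.00 to 0.28. Psmd14, the deubiquitinase, stood at 0.37, Psmd7, its partner, at 0.23, Psmd6 at 0.16 and Psmd12 at 0.10. Psmd14 read 2274 on control replicate 3 and 1488 on Et1 replicate 2, and its high minus low set difference was 0.74. Psmd3 was the exception of the lid: it read 977, 937 and 633 untreated against 609, 902 and 494 with Et1 (log2 fold change -0.37, SE 0.26, limma adjusted p = 0.602). It was thus low on the arrays where most members were high.

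The 3 tested activators had lower means with Et1, as had 5171 of all 11666 genes. Their median was -0.10, and 0 were at an unadjusted limma p under 0.05. Psme1, a partner of Psme2 in an activator induced by interferon, read 467, 385 and 507 untreated against 407, 416 and 452 with Et1 (log2 fold change -0.08, 95% interval -0.45 to 0.28, limma adjusted p = 0.865). Psme4, a nuclear activator, stood at -0.10 (limma adjusted p = 0.804) on a probe set that may share sequence with other transcripts, and its other tested ones stood at 0.05 and -0.07.

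Psme3, the activator of the nucleus, read 509, 479 and 296 untreated against 316, 546 and 288 with Et1 (log2 fold change -0.18, 95% interval -0.85 to 0.49, limma adjusted p = 0.837). Its low arrays were those of the high spike-in set, with a high minus low set difference of -0.80, and with the set as a block it stood at 0.09. Its other tested probe sets stood at -0.50 and 0.48. Psmf1, the inhibitor, read 256, 283 and 321 untreated against 326, 303 and 407 with Et1 (log2 fold change 0.26, limma adjusted p = 0.588). A dimmer probe set of Psmf1 stood at 0.66 (limma unadjusted p = 0.0127) and another at 0.07.

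**Figure D4:**
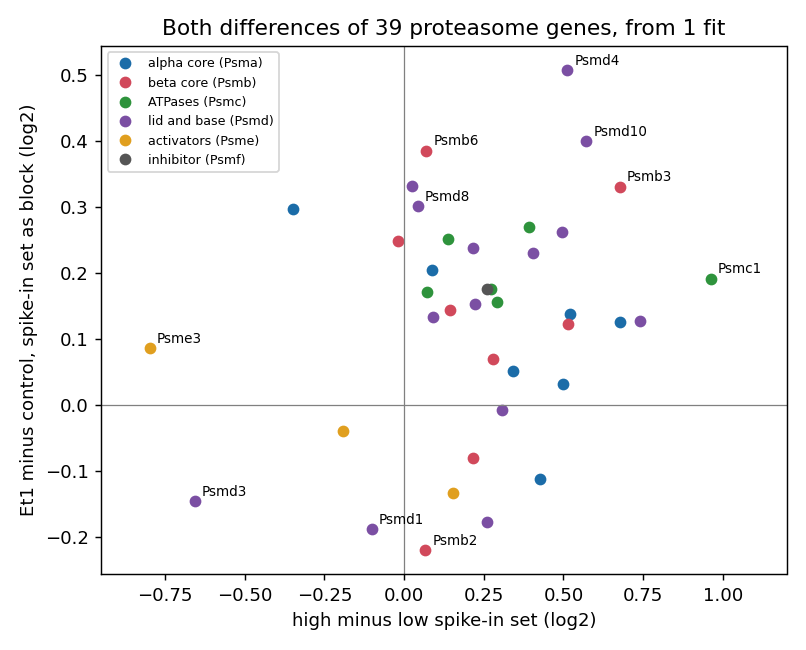
For each of the 39 tested proteasome genes, the log2 difference between the high and the low spike-in set (horizontal) and between Et1 and control (vertical), both from 1 limma fit with the set as a block. Psmb6 and Psmd8 lie high near the vertical line at 0, Psmc1 lies far to the right at 0.96, and Psme3 and Psmd3 lie to the left.

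Over the family, 19 members had more than 1 tested probe set, and in 14 of them all tested probe sets had 1 direction. The exceptions were Psmb1, Psmc6, Psmd7, Psme3 and Psme4. Of all 69 tested probe sets of members, 55 had higher means with Et1, where 55.7% of all genes did on their brightest probe sets. Of the 30 that stood for no gene, 0 passed the adjusted threshold.

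The other genes of the pathway were read from fixed lists, and 0 of their members passed the adjusted threshold in either direction. Of 8 tested assembly factors and small subunits, 7 had higher means, against 55.7% of all genes, with a median of 0.20. Akirin2, which brings proteasomes into the nucleus, stood at 0.38, and the assembly chaperones Psmg4 and Psmg1 at 0.29 and 0.21. Of 10 tested deubiquitinases, shuttles and receptors that work at the proteasome, 6 had higher means, against the same 55.7%, with a median of 0.03. Zfand2a, a stress-induced zinc finger protein of the proteasome, read 306, 302 and 331 untreated against 495, 473 and 542 with Et1, with no overlap (log2 fold change 0.69, limma unadjusted p = 0.00113, adjusted p = 0.102). With the spike-in block it passed, at 0.64 (limma adjusted p = 0.0118), where 1.75% of all genes passed as higher. Zfand5, its relative, stood at 0.44 and Ubqln4, a shuttle, at -0.38.

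Among 7 tested regulators of proteasome genes the median was 0.05. Nfyc, a subunit of the CCAAT-binding factor, read 360.3, 379 and 319 untreated against 261, 238 and 234 with Et1 (log2 fold change -0.53, limma adjusted p = 0.213). Irf1 stood at -0.25 and Nfe2l2 at 0.19. Nfe2l1, named after its value was seen, read 457 to 724 untreated against 553 to 843 with Et1 (0.09). Of the Vcp segregase and its cofactors, 4 of 8 had higher means, against 55.7% of all genes, with a median of 0.01. Among them were Nsfl1c at 0.11 and Ubxn1 at 0.20, and Faf1 stood at -0.15. Of the ubiquitin genes and E1 enzymes only Uba6 was read, at -0.08.

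Of 8 tested genes that process and present antigen with the immunoproteasome, 4 had higher and 4 lower means, where 55.7% of all genes were higher. The chaperones Calr and Pdia3 stood at -0.99 and -0.45 (limma adjusted p = 0.175 and 0.217), and H2-D1, a class I molecule read on a probe set that may share sequence with other transcripts, at 0.35 (limma adjusted p = 0.393). Calr passed with the spike-in block, at -0.75 (limma adjusted p = 0.00592), where 556 of 22519 probe sets passed as lower. Tap1, a peptide transporter gene that lies between Psmb9 and Psmb8 in the RefSeq gene order, was under the filter, with 43.1 to 57.8 untreated against 12.1 to 43.9 with Et1, and so overlapped where Psmb8 did not. Tap2, on the other side of Psmb8, stood at 0.17. Both were named after their values were seen.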

How the data were processed

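The values analysed are the authors' deposited intensity signals, 1 linear value per probe set and array, from MAS5, according to the submitters' processing notes (version and target scaling: not given in the sources used here). Each array was scaled to a 2% trimmed mean of 138.5 (2% of probe sets left out at each end), 4 zeros took the array's lowest value above 0, and signals were put on a log2 scale. Of 45037 probe sets, after 64 controls were left out, 22519 had a mean scaled signal of at least 41.0 and were tested with limma 3.58.1 in R 4.3.3 (eBayes with an intensity trend, no block, Benjamini-Hochberg over all of them).

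Genes were named from the platform annotation, from probe sets with 1 symbol, and all 43 members matched the RefSeq table by identifier. Members with the 3 smallest unadjusted p-values of each class, any past the threshold, the brightest and the dimmest were to be named, with at most 3 per pathway list. The other members were named to account for all. The members and lists were chosen with earlier results of these data known, and so was the spike-in split, placed at the largest gap between arrays. The labels describe biological replicates without naming animals, so p-values measure the spread between these arrays. The fit was tested on simulated data. Alternatives were other scalings, filters, probe sets, 50 added before log2, no trend, each array left out and both blocks.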

Additional observations from a re-analysis of the deposited data

How the results depend on the processing

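The count of 78 called probe sets became 44 centred on the median, 40 with no filter, 7 with no intensity trend, 567 with the replicate block and 868 with the spike-in block, and 4 to 229 with an array left out. Of the proteasome genes, 1 (Psmd4, at 0.51) passed with the spike-in block and 0 to 1 with an array left out; 0 passed under the other settings, the replicate block included. Members higher at an unadjusted limma p under 0.05 numbered 7 in the main fit (6.93% of all genes). They numbered 10 after quantile normalization (6.78%), 13 with the replicate block (11.1%) and 11 with the spike-in block (10.5%). Lower counts were 1 centred on the median (3.91%) and 4 with no intensity trend (6.33%). With 50 added before log2 there were 6 (6.93%), and with the mean of probe sets 6 (7.47%). With an array left out the count ran from 0 (3.44%) to 16 (10.4%). Within the high spike-in set the median was 0.073 for all members and 0.079 for the ATPases. Of the named members, Psmb10 ran from -0.078 to 0.105 and Psme1 from -0.196 to 0.003 with an array left out, and Psme3 stood at 0.086 with the spike-in block. The other class medians moved by less than 1 SD between arrays, and each kept its sign. The replicate numbers were not taken to pair the cultures, as no label says that they do. Deviations of same-numbered arrays correlated at -0.12, 0.44 and 0.45. Arrays numbered 2 and 3 correlated best with their own number, and those numbered 1 did not. Both arrays numbered 2 are in the low spike-in set and both numbered 3 in the high set. A shared culture and a shared set therefore cannot be told apart by these correlations. The causes were not tested.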
